A study of Mus musculus with 6 samples.

Results

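The macrophage and complement C1q genes examined here were *C1qa*, *C1qb*, *C1qc*, *Csf1r*, *Cd68*, *Emr1*, *Mrc1*, *Cd163*, *Aif1* and *Tyrobp*, read by every probe that carries their symbols, with no threshold on measured values. These 10 genes of the 18138 symbols on the array were read by 16 of its 25697 probes, and 12 of the 16 were detected (detection p under 0.05) on all 6 arrays. RNA of cochlear tissue was hybridized to Illumina MouseRef-8 v2 arrays, 1 array per sample, with 3 samples from wild type (WT) and 3 from *Cmah*-null mice. Both groups were 12 months old, untreated as far as the labels say, and of the C57BL/6 strain by the labels, C57BL/6J in the study's methods. *Cmah* is the hydroxylase that makes the sialic acid Neu5Gc, and the *Cmah*-null mice were knockout animals. The deposited tables call the second group "old", which was read as *Cmah*-null by the number of each sample, and no sex is given for any mouse. The study's methods give n = 3 per group, but the labels do not say which samples came from separate animals. The p-values therefore measure the spread between these samples. The purpose of the comparison was to find genes whose expression differs between the cochleae of both genotypes.

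Macrophages are resident immune cells that engulf dead cells and debris, and in the cochlea they are known from the spiral ligament, the spiral ganglion and the tissue below the sensory epithelium. They are a main source of C1q, the recognition molecule of the classical complement pathway, which is built of A, B and C chains and binds antibody complexes and dying cells. Their survival depends on the receptor *Csf1r*, and many of their activating receptors signal through the adaptor *Tyrobp*. In RNA of a whole tissue, fewer cells of a type and less RNA per cell cannot be told apart.

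Each C1q chain was read by a single probe of 50 bases, and these sequences are shown because every C1q value below rests on them. The probes lie on the minus strand of chromosome 4, band D3, within 15822 bases of each other, in a deposited annotation that names no genome build. RefSeq (GRCm38.p6) lists the C1q genes as neighbours.
C1qa probe: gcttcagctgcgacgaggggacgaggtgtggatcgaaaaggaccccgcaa
C1qb probe: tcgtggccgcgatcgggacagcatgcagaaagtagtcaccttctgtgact
C1qc probe: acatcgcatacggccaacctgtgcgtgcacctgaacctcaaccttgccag

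The start regions of *C1qb* and *C1qc* are shown because both genes gave nearly the same profile over the arrays. They hold the 250 bases before the RefSeq transcription start, on the minus strand of GRCm38.p6, at chr4:136886201-136886450 for *C1qb* and chr4:136892915-136893164 for *C1qc*. Capitals mark the letters GAGGAA or their reverse complement TTCCTC, a core of sites bound by the macrophage factor PU.1. This motif was the only one searched, on both strands, and it was chosen after the sequences had been seen.
C1qb start region: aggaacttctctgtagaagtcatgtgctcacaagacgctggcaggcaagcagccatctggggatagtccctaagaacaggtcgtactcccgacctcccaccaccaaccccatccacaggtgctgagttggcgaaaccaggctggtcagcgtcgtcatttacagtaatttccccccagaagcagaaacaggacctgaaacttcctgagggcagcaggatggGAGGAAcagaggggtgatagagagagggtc
C1qc start region: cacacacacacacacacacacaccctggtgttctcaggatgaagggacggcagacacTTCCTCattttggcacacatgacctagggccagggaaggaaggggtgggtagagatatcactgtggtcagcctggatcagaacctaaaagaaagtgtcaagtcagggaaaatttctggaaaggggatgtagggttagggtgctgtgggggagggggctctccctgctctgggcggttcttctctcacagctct

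The motif lay 30 bases before the start of *C1qb* and 193 bases before that of *C1qc*. Windows were at hand for 6 of the 10 genes, and 5 of these held the motif, in *Cd68*, *Aif1* and *Mrc1* as well as in both C1q genes but not in *Cd163*. Of 32851 windows of the same length, 23.3% held it. A match is a description of letters and not of a bound site.

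The arrays were unlike each other in ways that bear on these genes. *Cmah*-null replicate 3 stood apart from every other array, with log2 differences that had an SD of 0.56 to 0.64, whereas *Cmah*-null replicates 1 and 2 differed by only 0.13 and all other pairs by 0.31 to 0.44. On *Cmah*-null replicate 3 the deviation from the other arrays followed the start of the probe in its transcript, counted in bases. The Spearman correlation was 0.32 over 12410 detected probes against -0.11 to 0.01 on the other 5 arrays. A typical probe was read by 32 to 34 beads (median) on WT replicate 1 and *Cmah*-null replicates 1 and 2 and 38 to 39 on the other 3 arrays. Between 13873 and 15223 probes were detected per array. The *Cmah* probe (ILMN_2606825) read 7.27, 7.28 and 7.87 in WT, against 7.95, 7.98 and 7.27 in *Cmah*-null mice in log2 signal and was detected on 1 WT and 2 *Cmah*-null arrays, so that it could not serve to check the labels. Of 17 markers of cochlear epithelium and lateral wall on the array, 11 were detected on all arrays, while *Tectb*, a tectorial membrane protein, and *Slc26a5*, the motor protein of outer hair cells, were detected on none.

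No member differed between the genotypes after adjustment over all probes. None of the 16 member probes reached an adjusted p under 0.05 (limma with Benjamini-Hochberg adjustment), and of all 25697 probes 0 reached it. At an unadjusted p under 0.05 there was 1 member probe, that of *Cd68*, where 8.56% of all probes passed. No member probe combined a 1.5-fold difference with a p under 0.05 before adjustment, against 1.3% of all probes higher and 1.41% lower in the *Cmah*-null cochlea. The log2 difference (*Cmah*-null minus WT) was positive for 10 and negative for 6 member probes. Its median was 0.05 over the 16 and 0.16 over the 12 detected on all arrays, beside 0.03 over all probes so detected. The groups did not overlap for 1 member probe, while 9.11% of all probes had all *Cmah*-null arrays above all WT arrays and 7.33% all below.

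**Figure D1:**
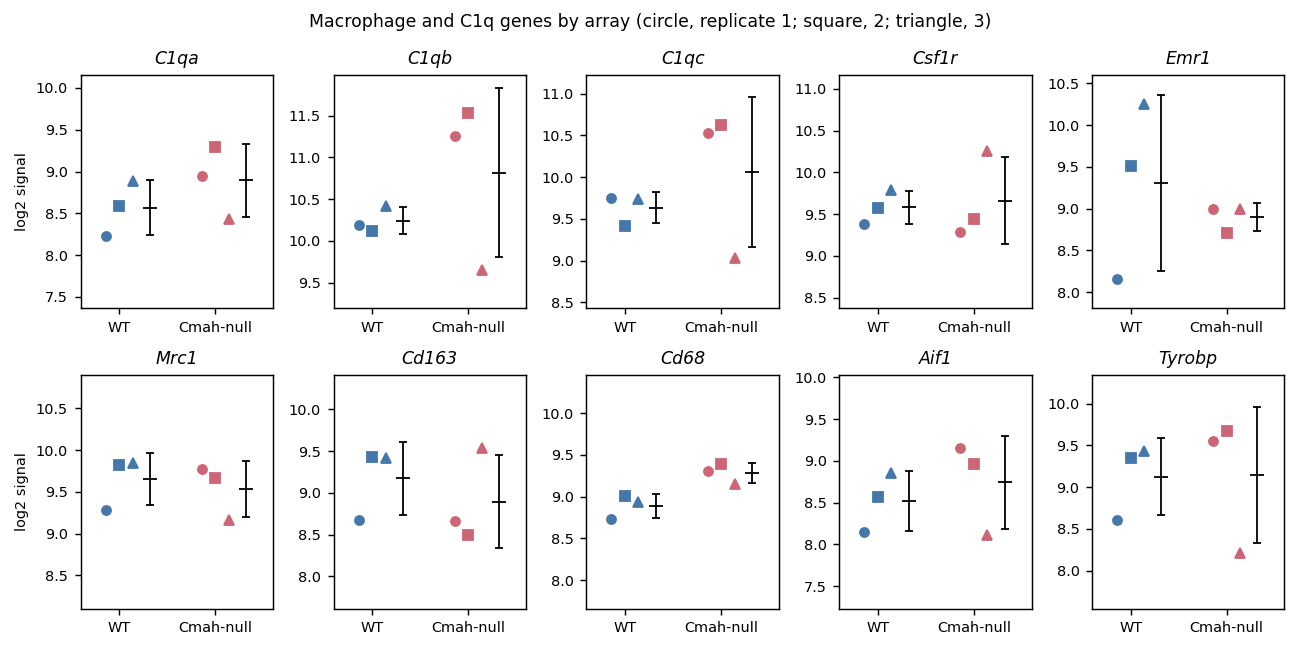
Log2 signal of the brightest probe of each of the 10 genes, on 3 WT (blue) and 3 *Cmah*-null (red) arrays; each y axis spans the same number of log2 units, and the black bar is the mean with its SD. In *Cd68* all *Cmah*-null points lie above all WT points. In the C1q chains, *Aif1*, *Tyrobp*, *Mrc1* and *Cd68* the triangle of *Cmah*-null replicate 3 lies lowest of its group.

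The C1q chains had the highest mean differences among the brightest probes together with *Cd68*, and for each chain the SD over the *Cmah*-null arrays was larger than its difference. *C1qb*, the B chain (ILMN_2619620), gave log2 signals of 10.19, 10.11 and 10.42 on WT arrays, with 11.26, 11.53 and 9.66 on *Cmah*-null arrays. *Cmah*-null replicates 1 and 2 were above all WT arrays and replicate 3 below all of them, so the groups overlapped. The difference was 0.57 with an SE of 0.49, and the adjusted p in limma was 0.771.

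*C1qc*, the C chain (ILMN_2715840), gave 9.75, 9.42 and 9.73 in the WT cochleae and 10.53, 10.62 and 9.03 in the *Cmah*-null cochleae. As in *C1qb*, *Cmah*-null replicates 1 and 2 were the highest and replicate 3 the lowest of all arrays. The difference was 0.43 with an SE of 0.44 and an adjusted p of 0.806 in limma. *C1qa*, the A chain (ILMN_2776431), gave 8.23, 8.59 and 8.89 in WT, against 8.95, 9.30 and 8.43 in *Cmah*-null mice. Here too replicates 1 and 2 were above every WT array, but replicate 3 was above WT replicate 1. The difference was 0.32 with an SE of 0.27 and an adjusted p of 0.763 in limma.

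The spread of the B and C chains was unequal between the genotypes. The SD of *C1qb* was 0.16 over the WT and 1.01 over the *Cmah*-null arrays (n = 3 each), and that of *C1qc* was 0.19 and 0.89. The median SD of the 12410 detected probes was 0.20 over the WT and 0.28 over the *Cmah*-null arrays. *C1qa* had an SD of 0.33 in WT and 0.43 in *Cmah*-null cochleae, closer to each other than those of its partner chains. The summed signal of the 3 chains, on a linear scale, was 2178 to 2698 in WT, 4420 and 5160 on *Cmah*-null replicates 1 and 2, and 1677 on replicate 3.

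Without *Cmah*-null replicate 3 the C1q differences about doubled in size for the B and C chains. *C1qb* was then higher by 1.15 with an SE of 0.14 (unadjusted p 2.6e-04, adjusted p 0.108, limma) and *C1qc* by 0.94 with an SE of 0.13 (unadjusted p 5.2e-04, adjusted p 0.129, limma). *C1qa* was higher by 0.55, with an unadjusted p of 0.051 and an adjusted p of 0.385 in limma. Both remaining *Cmah*-null arrays were the pair that differed least, and the study's labels give no reason to leave out the third. Over the 5 arrays *C1qb* and *C1qc* were the 2 member probes at 1.5-fold with an unadjusted p under 0.05, where 1.61% of all probes were higher and 1.82% lower by that rule. The groups then did not overlap for 7 member probes that were higher and 1 that was lower in the *Cmah*-null cochlea, where 18.0% and 15.7% of all probes did not. These p-values count *Cmah*-null replicates 1 and 2 as separate samples. With those 2 arrays averaged and replicate 3 kept, the differences were 0.21 for *C1qa*, 0.28 for *C1qb* and 0.17 for *C1qc*.

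The differences of the C1q chains also depended on the set of arrays by bead number. Among the 3 arrays with fewer beads, *Cmah*-null exceeded WT by 0.90 for *C1qa*, 1.20 for *C1qb* and 0.83 for *C1qc*. Among the 3 with more beads it was lower by 0.31, 0.61 and 0.54 log2 units. By their brightest probes *Tyrobp* (1.02 and -1.18), *Aif1* (0.91 and -0.60), *Emr1* (0.69 and -0.89) and *Mrc1* (0.43 and -0.67) reversed likewise. *Cd68* was higher in both sets, and *Csf1r* and *Cd163* changed the other way. The first set holds WT replicate 1 as its only WT array. The second holds *Cmah*-null replicate 3 as its only *Cmah*-null array, so bead number and these arrays cannot be told apart here.

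**Figure D2:**
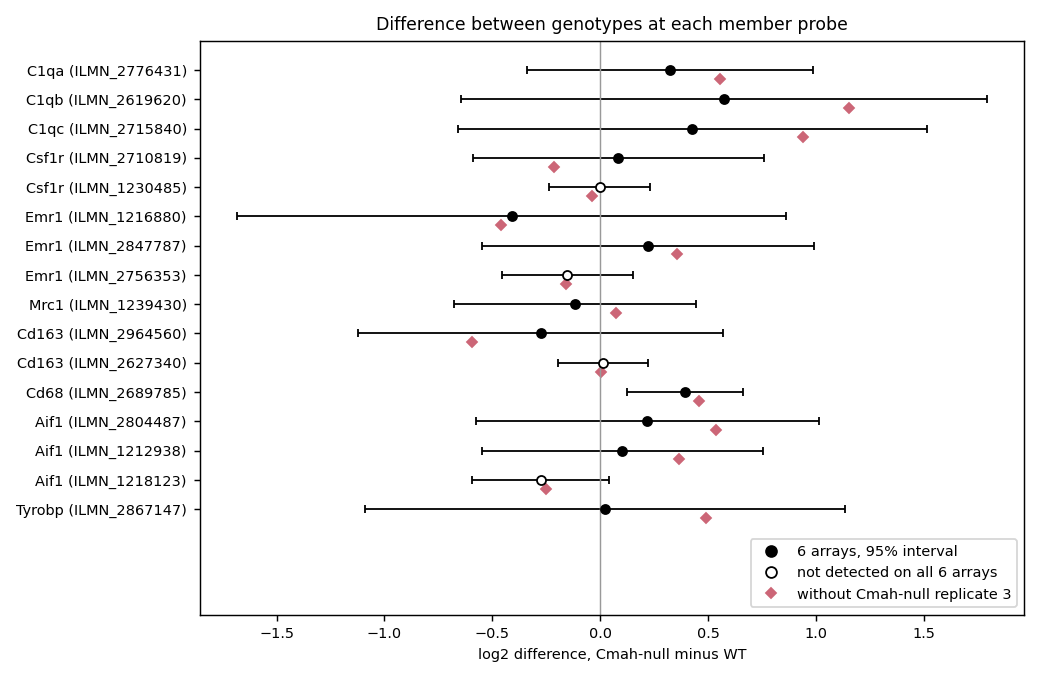
Log2 difference, *Cmah*-null minus WT, of each of the 16 member probes with its 95% confidence interval from limma (black, open where the probe was not detected on all 6 arrays), and the difference without *Cmah*-null replicate 3 (red). The interval of *Cd68* alone lies above 0, and leaving out that replicate moved the C1q, *Aif1* and *Tyrobp* probes to the right and *Csf1r* and *Cd163* to the left.

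Among the surface receptors no difference exceeded the spread between arrays. *Csf1r*, the receptor for the growth factors *Csf1* and Il34 (ILMN_2710819), gave 9.38, 9.57 and 9.78 on WT arrays, with 9.29, 9.45 and 10.25 on *Cmah*-null arrays. Here replicate 3 was the highest and replicate 1 the lowest of all arrays, the reverse of the C1q pattern for replicate 3. The difference was 0.08 with an SE of 0.27 and turned to -0.21 without replicate 3 (adjusted p 0.948 and 0.562, limma). Its second probe (ILMN_1230485) was detected on 1 array only.

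*Cd163*, the scavenger receptor that takes up haemoglobin bound to haptoglobin (ILMN_2964560), gave 8.67, 9.43 and 9.42 in the WT cochleae and 8.66, 8.49 and 9.53 in the *Cmah*-null cochleae. As in *Csf1r*, replicate 3 was the highest array of all, and WT replicate 1 lay level with *Cmah*-null replicate 1. The difference was -0.28 with an SE of 0.34 over 6 arrays and -0.59 with an SE of 0.26 without replicate 3 (adjusted p 0.843 and 0.413, limma), when all *Cmah*-null values lay under all WT values. The other *Cd163* probe (ILMN_2627340) was detected on no array.

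*Mrc1*, the mannose receptor of tissue macrophages (ILMN_1239430), gave 9.29, 9.82 and 9.84 in WT, against 9.78, 9.67 and 9.16 in *Cmah*-null mice. The lowest array of each group, WT replicate 1 and *Cmah*-null replicate 3, was lower than the others by about the same amount, and the difference was -0.12 with an SE of 0.23. *Emr1*, now named *Adgre1*, encodes the F4/80 antigen by which mouse macrophages are recognised. Its brightest probe (ILMN_1216880) gave 8.16, 9.51 and 10.25 on WT arrays, with 8.99, 8.71 and 8.99 on *Cmah*-null arrays. The WT values spread on both sides of the *Cmah*-null values, with an SD of 1.06 against 0.17, and the difference was -0.41 with an SE of 0.52.

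The probes of *Emr1* disagreed in sign. The second probe (ILMN_2847787) gave 8.17, 8.72 and 9.35 in the WT cochleae and 9.17, 9.04 and 8.70 in the *Cmah*-null cochleae, with a difference of 0.22 and an SE of 0.31. Both probes put WT replicate 1 lowest and WT replicate 3 highest, and they differed in the place of the *Cmah*-null arrays. The last *Emr1* probe (ILMN_2756353) was detected on no array. The difference of the brightest *Emr1* probe was -0.98 without WT replicate 1, with an unadjusted p of 0.012 in limma and groups that did not overlap, and 0.06 without WT replicate 3. No direction is therefore given for *Emr1*.

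*Cd68* had the smallest p among the members. *Cd68* is a glycoprotein of the lysosomes of macrophages, and its probe (ILMN_2689785) gave 8.73, 9.0 and 8.93 in WT, against 9.30, 9.39 and 9.16 in *Cmah*-null mice. All 3 *Cmah*-null arrays were above all 3 WT arrays, replicate 3 included. The difference was 0.39 with an SE of 0.11 and a 95% confidence interval of 0.13 to 0.66, a 1.31-fold higher signal, with an unadjusted p of 0.012 and an adjusted p of 0.470 in limma. It stayed between 0.31 and 0.67 under all 14 alternatives tried, but with a variance prior fitted with trend and robust its unadjusted p was 0.078.

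*Aif1*, the calcium-binding protein Iba1 of the macrophage cytoskeleton, gave 8.14, 8.57 and 8.86 on WT arrays, with 9.15, 8.96 and 8.11 on *Cmah*-null arrays at its brightest probe (ILMN_2804487). The second probe (ILMN_1212938) gave 7.89, 8.22 and 8.45 and then 8.60, 8.50 and 7.77. Both probes had *Cmah*-null replicate 1 highest and replicate 3 lowest of all arrays. Their differences were 0.22 with an SE of 0.32 and 0.10 with an SE of 0.26, and without replicate 3 they were 0.53 and 0.36 (adjusted p 0.394 and 0.455, limma). The last probe (ILMN_1218123) was detected on 1 array.

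*Tyrobp*, the adaptor also called DAP12, gave 8.60, 9.35 and 9.43 in the WT cochleae and 9.56, 9.67 and 8.21 in the *Cmah*-null cochleae (ILMN_2867147). Replicates 1 and 2 were the highest arrays and replicate 3 the lowest, as in *C1qb* and *C1qc*. The difference was 0.02 with an SE of 0.45 over 6 arrays and 0.49 without replicate 3 (adjusted p 0.992 and 0.497, limma).

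Some members followed *C1qb* over the arrays to varying degrees, *Csf1r* and *Cd163* ran against it, and *Emr1* did neither. Over the 6 arrays, and as a description only, the correlation with *C1qb* was 0.99 for *C1qc*, 0.85 for *C1qa* and for *Aif1*, 0.81 for *Tyrobp*, 0.65 for *Cd68* and 0.54 for *Mrc1*. It was -0.14 for *Emr1*, -0.69 for *Csf1r* and -0.78 for *Cd163*. All these values share the same 6 arrays, and *Cmah*-null replicate 3 is the lowest of 6 for 5 members and the highest for 2. WT replicate 1 was the lowest WT array for 8 of the 10 members.

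**Figure D3:**
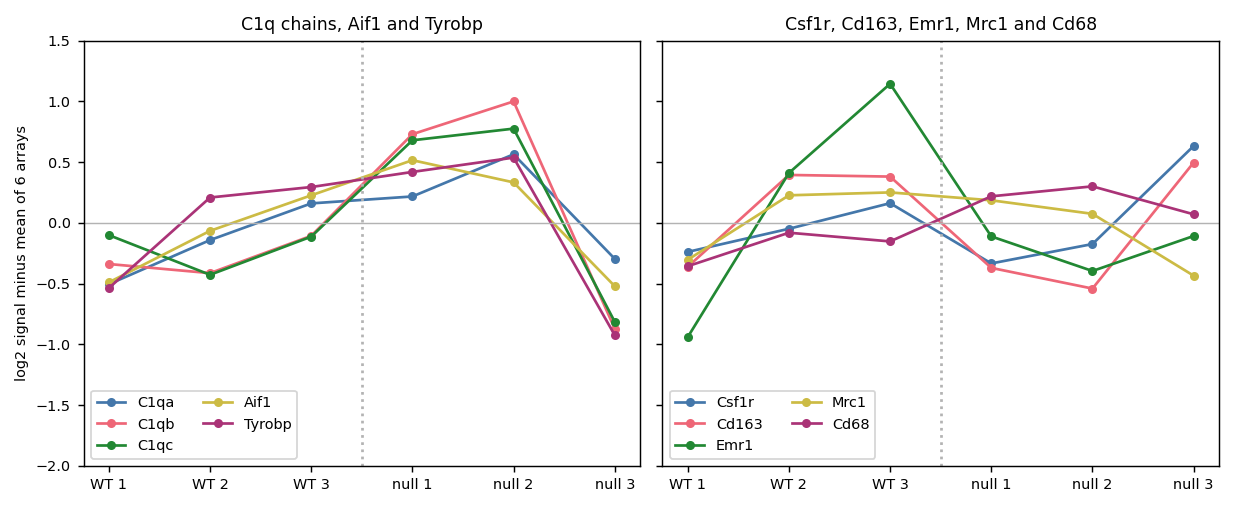
Log2 signal of each gene's brightest probe minus its mean over the 6 arrays, for the C1q chains, *Aif1* and *Tyrobp* (left) and the other 5 members (right); the lines only join the points of a gene, since replicates have no order. The genes at left drop together on *Cmah*-null replicate 3, where *Mrc1* at right is also at its lowest and *Csf1r* and *Cd163* are at their highest.

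On *Cmah*-null replicate 3, part of the members' behaviour went along with the start of the probe in its transcript, counted in bases. Transcript length was not taken into account, so start and length cannot be told apart. Over all detected probes, the median difference of *Cmah*-null replicate 3 from the mean of replicates 1 and 2 was -0.45 for probes starting in the first 500 bases, -0.26 from 500 to 1000, 0.14 from 2000 to 3000 and 0.30 beyond 4000. The probes of *C1qc*, *C1qb* and *C1qa* start at bases 589, 705 and 724, that of *Tyrobp* at 265 and those of *Aif1* at 289 and 682. The probes of *Csf1r* and *Cd163* start at bases 3495 and 4309. In this comparison within the *Cmah*-null group, *C1qb* was lower by 1.74 and *C1qc* by 1.54 on replicate 3. Both fell by more than the median of probes that start in the same range of bases. *Cd68*, at base 717, was lower by 0.19, and *Mrc1*, at base 4734, by 0.56 where most probes in that range of bases were higher. The *Emr1* probe at base 2989 was also lower, by 0.41, and that at base 3110 was higher by 0.15.

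After each array was centred within bins of probe position, *C1qb* on replicates 1 and 2 still exceeded replicate 3 by 1.49, *C1qc* by 1.30, *Tyrobp* by 0.92 and *C1qa* by 0.44. The differences between genotypes then came to 0.65 for *C1qb*, 0.50 for *C1qc*, 0.40 for *C1qa*, 0.47 for *Cd68* and -0.04 for *Csf1r*. This setting was chosen after the data had been seen. What gave replicate 3 its dependence on probe position was not tested.

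**Figure D4:**
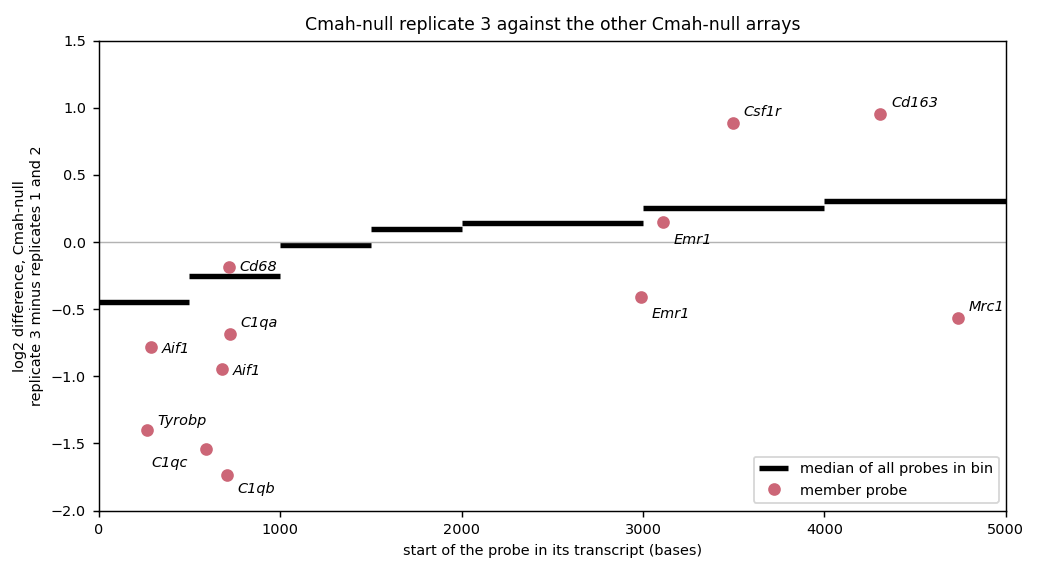
Log2 difference of *Cmah*-null replicate 3 from the mean of *Cmah*-null replicates 1 and 2 against the start of the probe in its annotated transcript, for the 12 member probes detected on all arrays (red points) and as the median of all detected probes in 7 bins of position (black lines, the last of which also holds probes beyond the axis). *C1qb*, *C1qc* and *Tyrobp* lie furthest under the black line, and *Csf1r* and *Cd163* above it.

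Of 9897 other genes detected on all arrays, among those whose profile was most like the mean of the C1q chains over the 6 arrays were *Ica1* and *Ankrd22* (r = 0.99 each), *Pcgf6*, *Fcgr3*, *Ihpk1* and *Pafah1b3* (0.98 each) and *Dnajc18* (0.97). Of these, only *Fcgr3*, an activating receptor for antibody complexes, was on a macrophage list. It gave 8.18, 8.27 and 8.55 in WT, against 8.96, 8.99 and 7.79 in *Cmah*-null mice. With 6 arrays such likeness was common, since 218 genes had an r of at least 0.9 and 191 an r of -0.9 or less, and at 0.95 these were 59 and 45.

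The genes around the members in their pathways were described from 6 lists, which name 153 genes, 144 of them on the array. By the brightest probe, 8 were higher and 1 lower in the *Cmah*-null cochlea by at least 1.5-fold with p under 0.05 before adjustment, and 22 had such a p at any fold, where 8.56% of all probes did. This was 5.56% of the listed genes higher, where 1.61% of all symbols by their brightest probe were higher and 1.46% lower. The lists were drawn up with earlier results of these data known, so these shares are a description and not an independent comparison. None had an adjusted p under 0.05. In 26 of the genes all *Cmah*-null arrays were above all WT arrays, and in 4 all were below, beside 9.11% and 7.33% of all probes. Shares of all probes are not limited to the brightest probe of each gene, unlike the counts of listed genes. Without *Cmah*-null replicate 3, 5 of the 9 genes still met the fold and p, namely *Cd59a*, *Csf2ra*, *Treml1*, *Plcg2* and *Siglec1*. Another 5, *Trem2*, *Fcer1g*, *Fcgr3*, *Ms4a6d* and *Il1b*, met them only without it and are named here after their values were seen, so that 9 were then higher and 1 lower.

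Other complement components did not pass the test in either direction. Of 21 on the array 15 had a positive and 6 a negative difference, with a median of 0.10, and 9 were detected on all arrays. *C4b*, which C1 cleaves in the classical pathway (ILMN_3049559), gave 10.02, 10.14 and 11.60 on WT arrays, with 11.38, 11.43 and 11.70 on *Cmah*-null arrays. WT replicate 3 lay among the *Cmah*-null arrays, and the difference was 0.92 with an SE of 0.43 (adjusted p 0.627, limma). *C9*, which forms the pore of the membrane attack complex, was detected on the *Cmah*-null arrays only, with means of 7.35 in WT and 7.60 in *Cmah*-null, at least 1.09-fold higher (adjusted p 0.549, limma). This bound sets the *Cmah*-null mean against the lowest signal of any detected probe on each WT array, or the probe's own where higher. *C1s*, a protease that C1q carries, had a difference of -0.24 with an SE of 0.13. *C3*, the central component of all complement pathways, was looked at after its values were seen and gave 12.09, 12.51 and 13.61 in the WT cochleae and 13.13, 13.16 and 13.14 in the *Cmah*-null cochleae. As in *C4b*, WT replicate 3 was the highest WT array.

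Among complement regulators and receptors, 2 of 20 were higher and 1 lower at 1.5-fold with p, and the median was 0.02. Of these 20, 8 were detected on all arrays and 9 on none. With only probes detected on 3 or more arrays kept, the median was 0.13. *Serping1*, the inhibitor of the C1 proteases (ILMN_2913166), gave 12.34, 12.63 and 13.10 in WT, against 13.12, 13.21 and 13.60 in *Cmah*-null mice. The groups did not overlap but nearly touched, and the difference was 0.62 with an SE of 0.23, or 0.48 without replicate 3 (adjusted p 0.569 over 6 arrays, limma). *Megf10*, a receptor through which glia engulf C1q-marked material (ILMN_2840286), gave 9.94, 9.91 and 10.01 on WT arrays, with 10.55, 10.35 and 10.74 on *Cmah*-null arrays. All *Cmah*-null arrays were clear of the WT arrays, and the difference was 0.59 with an SE of 0.11 (adjusted p 0.397, limma), and 0.50 without replicate 3. *Cd59a*, which blocks the membrane attack complex (ILMN_1228942), gave 12.69, 12.28 and 11.89 in the WT cochleae and 11.68, 11.68 and 11.24 in the *Cmah*-null cochleae. It was lower in all *Cmah*-null arrays, by 0.75 with an SE of 0.23 (adjusted p 0.525, limma). The probe of *Megf10* starts at base 6840 of its transcript. After centring by probe position, the differences were 0.57 for *Serping1*, 0.45 for *Megf10* and -0.81 for *Cd59a*. Of these genes only *Cd59a* then exceeded 1.5-fold.

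Of 13 ligands of *Csf1r* and transcription factors of macrophages, 2 were higher at 1.5-fold with p and the median was 0.21, but -0.01 without *Cmah*-null replicate 3. *Csf1*, the ligand of *Csf1r* (ILMN_1254561), gave 8.38, 8.48 and 8.76 in WT, against 8.96, 9.02 and 9.97 in *Cmah*-null mice. All *Cmah*-null arrays were above all WT arrays, replicate 3 most of all, and the difference was 0.78 with an SE of 0.29, or 0.45 without replicate 3 (adjusted p 0.569 over 6 arrays, limma). Its probe starts at base 4015 of the transcript. *Csf2ra* is a receptor chain for the factor Csf2 and neither a ligand of *Csf1r* nor a transcription factor. It gave 8.08, 7.92 and 7.83 on WT arrays, with 8.76, 8.79 and 9.36 on *Cmah*-null arrays (ILMN_2866276). The groups did not overlap, and the difference was 1.03 with an SE of 0.18 over 6 arrays (adjusted p 0.397, limma) and 0.83 without replicate 3.

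Of 21 receptors and signalling proteins around *Tyrobp*, 16 had a positive difference, 2 of them at 1.5-fold with p, and the median was 0.11. *Plcg2*, a phospholipase C of myeloid and B cells (ILMN_2601833), gave 9.91, 10.28 and 10.03 in the WT cochleae and 10.80, 10.78 and 11.15 in the *Cmah*-null cochleae. The groups did not overlap, and the difference was 0.83 with an SE of 0.15 (adjusted p 0.397, limma). Its probe starts at base 4200, and the difference was 0.69 after centring by probe position. *Treml1*, known from platelets and not a partner of *Tyrobp*, gave 9.33, 8.18 and 9.26 in WT, against 9.96, 9.89 and 10.08 in *Cmah*-null mice (ILMN_2523169). WT replicate 2 was far under the other WT arrays, and the difference was 1.05 with an SE of 0.32 (adjusted p 0.509, limma). *Trem2* and *Fcer1g* were chosen after their values were seen. *Trem2*, a lipid receptor that signals through *Tyrobp*, gave 8.18, 8.39 and 8.75 on WT arrays, with 9.31, 9.09 and 8.56 on *Cmah*-null arrays. *Fcer1g*, the adaptor related to *Tyrobp*, gave 10.91, 11.35 and 11.23 in the WT cochleae and 12.12, 12.11 and 10.59 in the *Cmah*-null cochleae. In both, *Cmah*-null replicates 1 and 2 were above all WT arrays and replicate 3 was not, as in the C1q chains, and the probe of *Fcer1g* starts at base 308.

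**Figure D5:**
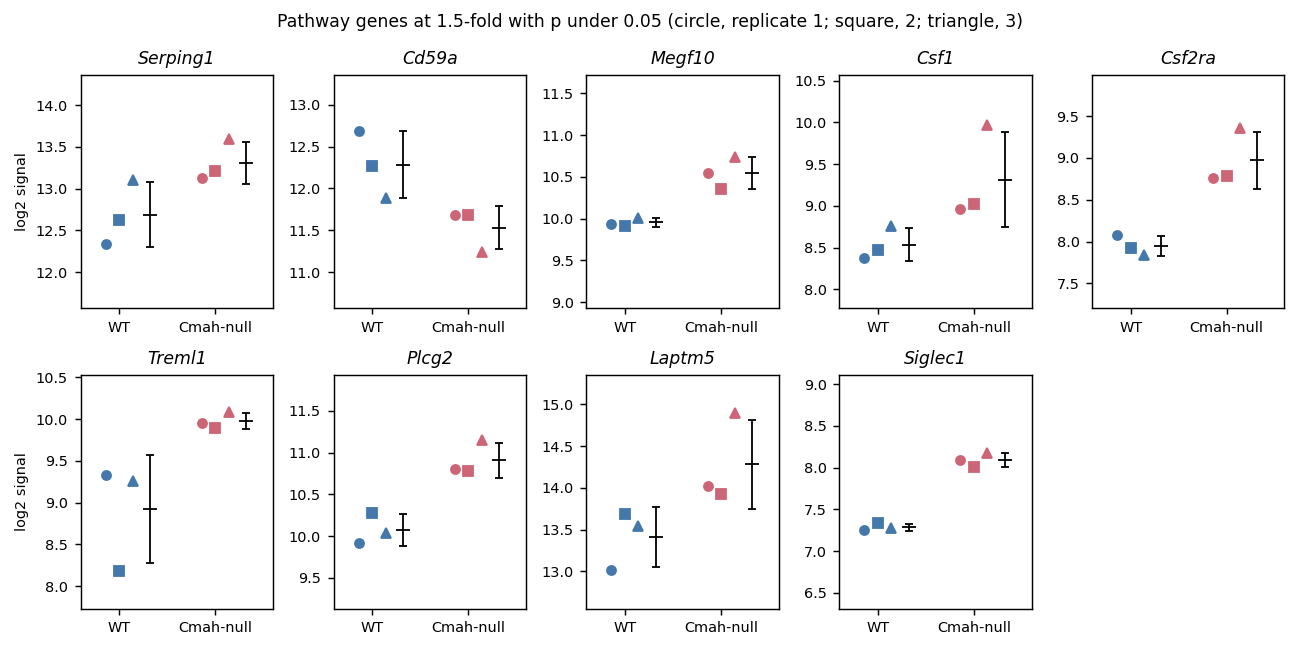
Log2 signal of the 9 pathway genes that differed by 1.5-fold with an unadjusted p under 0.05, on 3 WT (blue) and 3 *Cmah*-null (red) arrays; each y axis spans the same number of log2 units, and the black bar is the mean with its SD. *Cd59a* is lower and the other 8 are higher on all *Cmah*-null arrays, with the least spread in *Siglec1* and *Megf10*.

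Of 46 other macrophage and microglia genes, 31 had a positive difference, and 2 were higher at 1.5-fold with p. The median was 0.10. *Siglec1*, a sialic acid-binding receptor of macrophages (ILMN_2762966), gave 7.25, 7.34 and 7.27 in WT, against 8.09, 8.01 and 8.17 in *Cmah*-null mice. All *Cmah*-null arrays detected it and no WT array did, so its signal was at least 1.54-fold higher (unadjusted p 5.4e-05, adjusted p 0.250, limma). *Laptm5*, a lysosomal membrane protein of blood-derived cells (ILMN_1217849), gave 13.01, 13.69 and 13.54 on WT arrays, with 14.02, 13.93 and 14.89 on *Cmah*-null arrays. The groups did not overlap, with a difference of 0.87 and an SE of 0.31, or 0.56 without replicate 3 (adjusted p 0.559 over 6 arrays, limma). *Lyz2*, the macrophage lysozyme, was picked after its values were seen and gave 14.70, 14.78 and 15.33 in the WT cochleae and 15.42, 15.48 and 12.40 in the *Cmah*-null cochleae. Its probe starts at base 133, and replicate 3 lay far under all other arrays.

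Among 25 genes of macrophage activation none passed at 1.5-fold with p, and the median was 0.02. Of these 25, 10 were detected on all arrays and 12 on none. *Il1b*, an inflammatory cytokine, gave 7.19, 7.74 and 8.29 in WT, against 9.16, 9.16 and 7.91 in *Cmah*-null mice, with a difference of 1.00 and an SE of 0.44 (adjusted p 0.607, limma). Replicate 3 again lay among the WT arrays, and without it *Il1b* was higher by 1.42 with an unadjusted p of 0.0054 and an adjusted p of 0.199 in limma, the only gene of this list then at 1.5-fold with p. *Lpl*, a lipase, had a difference of -0.27 with an SE of 0.09, and *Spp1*, the secreted protein osteopontin, one of -0.79 with an SE of 0.34.

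Markers of other cell types moved with the genotypes in some lists. Of 10 fat genes 4 were lower at 1.5-fold with p, and their summed linear signal was 36006 to 41179 in *Cmah*-null against 63482 to 90197 in WT cochleae, without overlap. Of 12 genes of MHC class II and dendritic cells 3 were higher at 1.5-fold with p, with a summed signal of 22701 to 29215 against 7763 to 17118. For T and NK cell genes, of which 3 of 10 were detected on all arrays, the sum was 2051 to 2381 in *Cmah*-null and 1722 to 1999 in WT. No gene of the muscle, neutrophil, erythroid and B cell lists was at 1.5-fold with p, and 1 of 10 osteoclast genes was lower. Sums of the muscle list were 292720 to 300060 in *Cmah*-null and 261640 to 429720 in WT, and those of the neutrophil list 87535 to 101580 and 82477 to 114130. The median log2 difference was -0.99 for fat, 0.18 for MHC class II and dendritic cell, 0.14 for T and NK cell, 0.03 for B cell, 0.52 for neutrophil and marrow, -0.32 for erythroid, -0.40 for muscle, 0.00 for osteoclast and 0.09 for cochlear genes. Of the MHC class II and dendritic cell genes 6 were detected on all arrays and 5 on none. With only probes detected on 3 or more arrays kept, their median was 0.50. The neutrophil and marrow median was 0.10 without WT replicate 3 and 0.91 without WT replicate 2. The part of these tissues and cells in the values of the macrophage and C1q genes was not tested.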

How the data were processed

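RNA of 3 WT and 3 *Cmah*-null samples of cochlear tissue was hybridized to Illumina MouseRef-8 v2 arrays. The raw table, per its file headers, was deposited as intensity, averaged over beads and unlogged, with the number of beads. Its detection p-value per probe, against negative controls, was exported by the authors' scanner software. A further deposited table has log2 values after quantile normalization by the authors, and these equalled quantile-normalized log2 signals to within 5e-07. Columns of the authors' own comparison, a fold change, an LPE statistic and an adjusted p, were not used, nor were 18 columns of bead errors and repeated signals.

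A linear model of genotype alone was fitted to all 25697 probes with limma (version 3.58.1, R 4.3.3), moderated by eBayes, and two-sided p-values were adjusted over the whole array by Benjamini-Hochberg. The code was tested on simulated data. The members and lists were chosen with earlier results of these data known. Named were all members, list genes that reached 1.5-fold and an unadjusted p under 0.05, or otherwise up to 3 with the smallest p among those detected in a group, and the 8 genes most like the C1q chains, 1 of which is not reported here. The text says where another gene was picked with its values in view. A list gene was read by its brightest probe. Probes detected on no array of a group were given only a bound. Promoter windows came from RefSeq. The alternatives were neqc normalization (offset 16), median scaling, keeping only probes detected on 3 or more arrays, blocks for replicate number and bead number, each array left out, *Cmah*-null replicates 1 and 2 averaged, a prior with trend and robust, the brightest probe only and, added later, centring by probe position. Plots were made in Python 3.11.15 (matplotlib 3.10.9). The number of arrays limits the precision.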

Additional observations from a re-analysis of the deposited data

How the results depend on the processing

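No member probe had an adjusted p under 0.05 under any alternative (limma; over 6 arrays 1 had an unadjusted p under 0.05). The count at 1.5-fold with an unadjusted p under 0.05, 0 in the report, was 1 with median scaling and 0 to 2 with 1 array left out. The 2 were *C1qb* and *C1qc* without *Cmah*-null replicate 3, and without WT replicate 1 there was 1, the brightest *Emr1* probe, at -0.98. The median difference of the member probes, 0.05 in the report, was 0.35 with median scaling, which moved the median of all detected probes from 0.03 to 0.30, and -0.03 to 0.21 with 1 array left out. The count of member probes without overlap, 1 in the report, was 2 with median scaling, 2 with *Cmah*-null replicates 1 and 2 averaged, and 1 to 8 with 1 array left out, being 5 without WT replicate 1 and 8 without *Cmah*-null replicate 3.

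*C1qa*, *C1qb*, *C1qc*, *Cd68* and the brightest *Aif1* probe stayed positive under all 14 alternatives, at 0.12 to 0.59, 0.22 to 1.15, 0.14 to 0.94, 0.31 to 0.67 and 0.02 to 0.53. *Tyrobp* changed sign under 6 of them, from -0.24 to 0.49, and *Csf1r* under 3, from -0.21 to 0.42. *Mrc1* changed sign under 2, one of them median scaling, and the brightest probes of *Cd163* and *Emr1* under 1 each. The second *Aif1* probe (ILMN_1212938), also detected on all arrays, changed sign under 4, from -0.05 to 0.36. The last *Aif1* probe (ILMN_1218123), detected on 1 array, stayed negative, at -0.54 to -0.20. The cause was not tested.

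Samples with the same replicate number did not deviate together (correlations 0.02, -0.17 and 0.01). Between different numbers the correlations were -0.10 to 0.17. *Cmah*-null replicate 3 stood apart from the other arrays, so these values cannot decide whether the numbers pair the samples. With the replicate number as a block, 0 member probes were at 1.5-fold with p, 0 at an adjusted p under 0.05, and the median was 0.05.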
